A study of Mus musculus with 2 samples.

Results

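The ZFP36 family is a small group of RNA-binding zinc finger proteins, and 3 of its genes, Zfp36, Zfp36l1 and Zfp36l2, were among the 12798 genes counted in CD8 T cells of the mouse colon. The 3 genes were chosen by name from that table, with earlier Crep minus Cren results of the same cells in view, among them the difference of Zfp36 over all cells. Their Crep minus Cren values are therefore a description: adjusted p-values from the fits over all genes are printed to place the genes in those fits and are no independent support. How the difference varied between cell clusters was the comparison asked of them.

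The 8562 cells came from the colon lamina propria of Rag1 KO mice, hosts without T or B cells of their own, in which transferred wildtype naive CD4 T cells bring on colitis. Each host had received 100000 of these CD4 cells, sorted from spleen as CD45RB-high and CD25-negative, and 500000 splenic CD8 T cells, sorted as positive for TCRb and CD8b and negative for CD4, with a labelled age of 8 to 12 weeks at transfer, and CD8 T cells were taken 6 to 10 weeks later. The CD8 cells came either from Bcl6fl/fl Cd8aCre donors, in which Cre under Cd8a control acts on a floxed Bcl6 gene, or from Bcl6fl/fl donors, which carry the floxed gene without Cre. Hosts, CD4 cells and the floxed Bcl6 gene were thus common to both groups, and the Cre acts in the transferred CD8 cells and not in the host. Cells carried 8 hashtag antibodies, 4 labelled Cren and 4 labelled Crep, and were read as 1 pooled library. Cren was read as Cre-negative and Crep as Cre-positive, which no source spells out. Differences are given as Crep minus Cren.

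ZFP36 proteins bind AU-rich elements in the 3′ untranslated regions of messenger RNAs and recruit the CCR4-NOT deadenylase, so that the bound message loses its poly(A) tail and is degraded or poorly translated. Zfp36, also called tristetraprolin, is an early response gene that is induced within minutes of a stimulus and limits cytokine messages such as Tnf. Zfp36l1 and Zfp36l2 are close relatives that act together in lymphocyte development and quiescence, and in T cells the family restrains cytokine production and activation.

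The AU-rich element is shown first because each of these genes carries it in its own message. The nonamer searched was TTATTTATT and the heptamer within it TATTTAT, on the transcript strand only, in 1 transcript per gene of GENCODE M21 (GRCm38). Each gene had 1 nonamer and 3 heptamers in its 3′ untranslated region. The capitals below mark the nonamer, and every site lies in the 3′ untranslated region within a single exon on the minus strand.
Zfp36 (chr7:28376952-28376978): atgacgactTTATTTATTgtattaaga
Zfp36l1 (chr12:80108168-80108194): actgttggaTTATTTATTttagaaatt
Zfp36l2 (chr17:84184915-84184941): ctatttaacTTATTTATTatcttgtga
Of the 11232 table genes with a 3′ untranslated region in the annotation, 914 (8.14%) held the nonamer and 29.6% the heptamer. A match is a run of letters and no measured binding.

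The genes lie at chr7:28376784-28380253 (Zfp36, ENSMUSG00000044786.6), chr12:80107754-80113013 (Zfp36l1, ENSMUSG00000021127.7) and chr17:84183931-84187947 (Zfp36l2, ENSMUSG00000045817.8), all on the minus strand. Zfp36 and Zfp36l1 had an entry in the promoter table of RefSeq (GRCm38.p6), which spans 250 bases before to 50 after the start, and their matches are shown because early response genes are commonly driven by such elements. Motifs were searched on both strands: the CArG box by its name, an EGR motif as GCGNGGGCG, an AP-1 motif with any middle base as TGANTCA, and a CRE as TGACGTCA. Capitals mark the match.
Zfp36, CArG box (chr7:28379268-28379295, minus strand): caggccgccCCATAAAAGGagaaagctc
Zfp36, EGR motif (chr7:28379316-28379342, minus strand): agctacgccGCGGGGGCGcgtcccgga
Zfp36l1, AP-1 motif with any middle base (chr12:80113127-80113151, minus strand): ccgcatggcTGATTCAacctcagtg
The matches began 58, 105 and 129 bases before the RefSeq start. The CArG box and the EGR motif of Zfp36 overlap an exon of a longer GENCODE transcript of the gene. Of 32544 promoters of this length, 1.64% held a CArG box, 5.60% the EGR motif, 7.79% the AP-1 motif with any middle base and 1.80% the CRE. The stricter AP-1 motif, with C or G in the middle, was in 5.19% and in neither of these windows.

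Each hashtag held 900 to 1305 cells and 2635241 to 4201265 UMIs, so that a member was counted 368 to 3919 times per hashtag over all cells. Cd3e was seen in 93.9% of cells and Cd8a in 79.9%, whereas the summed markers of other cells (Cd4, Foxp3, Lyz2, Epcam and the like) came to 75.1 to 98.0 CPM (UMIs scaled to a common library total) in Cren hashtags and 94.9 to 119 in Crep ones. Within that sum, over all cells of a group, Cd4 was at 0.30 CPM in Cren and 6.92 in Crep and Trdc at 1.2 and 7.08, whereas Foxp3 was at 1.58 and 0.57 and Epcam at 2.70 and 1.55. Most of the sum was Lyz2, at 56.0 and 64.5, and the part of these markers in the results was not tested. Bcl6 itself was read at 15.4 to 20.5 CPM in the Cren hashtags and 24.3 to 32.4 in the Crep hashtags, a log2 difference of 0.75 (SE 0.14, edgeR adjusted p = 0.0293). The sources do not give the floxed exons, and 5′ reads start at the beginning of the message, so this count does not check the deletion. Crep 4 stood apart: 68.5% of its cells were in fine clusters 4 and 7, against 13.6 to 24.1% in the other Crep hashtags and 1.78 to 10.6% in Cren.

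Zfp36l2 was the most abundant family member in these cells. UMIs of 5′ libraries count messages without a length factor. Over all cells Zfp36l2 had 23757 UMIs (927 CPM, rank 160 of all genes), Zfp36 had 11348 (443 CPM) and Zfp36l1 had 6967 (272 CPM). A Zfp36l2 UMI was found in 76.4% of cells, a Zfp36 UMI in 48.5% and a Zfp36l1 UMI in 43.2%. With each cell thinned to 2000 UMIs, 13.5% of cells had a UMI of none of these genes and 11.9% had one of each of the 3. Cells with both genes of a pair were set against independent detection within each hashtag and fine cluster. They were 1.05 (Zfp36 and Zfp36l1), 1.03 (Zfp36 and Zfp36l2) and 1.02 (Zfp36l1 and Zfp36l2) times as many. Differences between clusters are thus taken out of these ratios.

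The authors' annotation divided the cells into 12 fine clusters, and the members had different orders of level across them. The clusters were built on the same counts, so these levels are a description. Zfp36 was highest in cluster 6 (941 CPM), whose leading gene was Nr4a1, an orphan nuclear receptor induced by T cell receptor signals, and lowest in cluster 7 (153) and cluster 0 (228). Cluster 7 was cytotoxic-like by Gzma, Gzmb, Prf1, Klrg1 and Klrd1, and cluster 0 tissue-resident-like by Itgae, Cxcr6, Itga1 and Zfp683. Of the 592 cells of cluster 7, 570 came from Crep, so cluster and group cannot be told apart in its level. The 9 clusters between lay from 370 to 606 CPM, and 9 of the 11 neighbouring pairs in the order differed by less than the SD over hashtags.

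Zfp36l1 had another order. It was highest in cluster 11 (594 CPM, 73 cells) and cluster 2 (494), which was tissue-resident-like by Itgae, Cd69 and Rgs1 and also raised Tcf7 and Il7r. The lowest levels were in clusters 7 (93.8), 8 (149) and 4 (150): 7 and 4 were cytotoxic-like, the latter with 8 of 9 markers raised, and 8 was exhausted-like by Pdcd1, Tox, Lag3, Tigit and Ctla4. Clusters 7 (570 of 592 cells from Crep) and 8 (448 of 501 from Cren) held mostly 1 group, so cluster and group cannot be told apart there. In 10 of 11 neighbouring pairs the difference was within the SD over hashtags. Zfp36l2 was highest in clusters 6 (1349 CPM) and 3 (1311) and lowest in clusters 11 (200) and 0 (453), with 8 of 11 pairs within the SD. Cluster 11, led by Penk, Ccl1 and Xcl1, thus held the highest pooled Zfp36l1 level and the lowest Zfp36l2 level, though only 2 hashtags had 10 or more cells there.

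**Figure D1:**
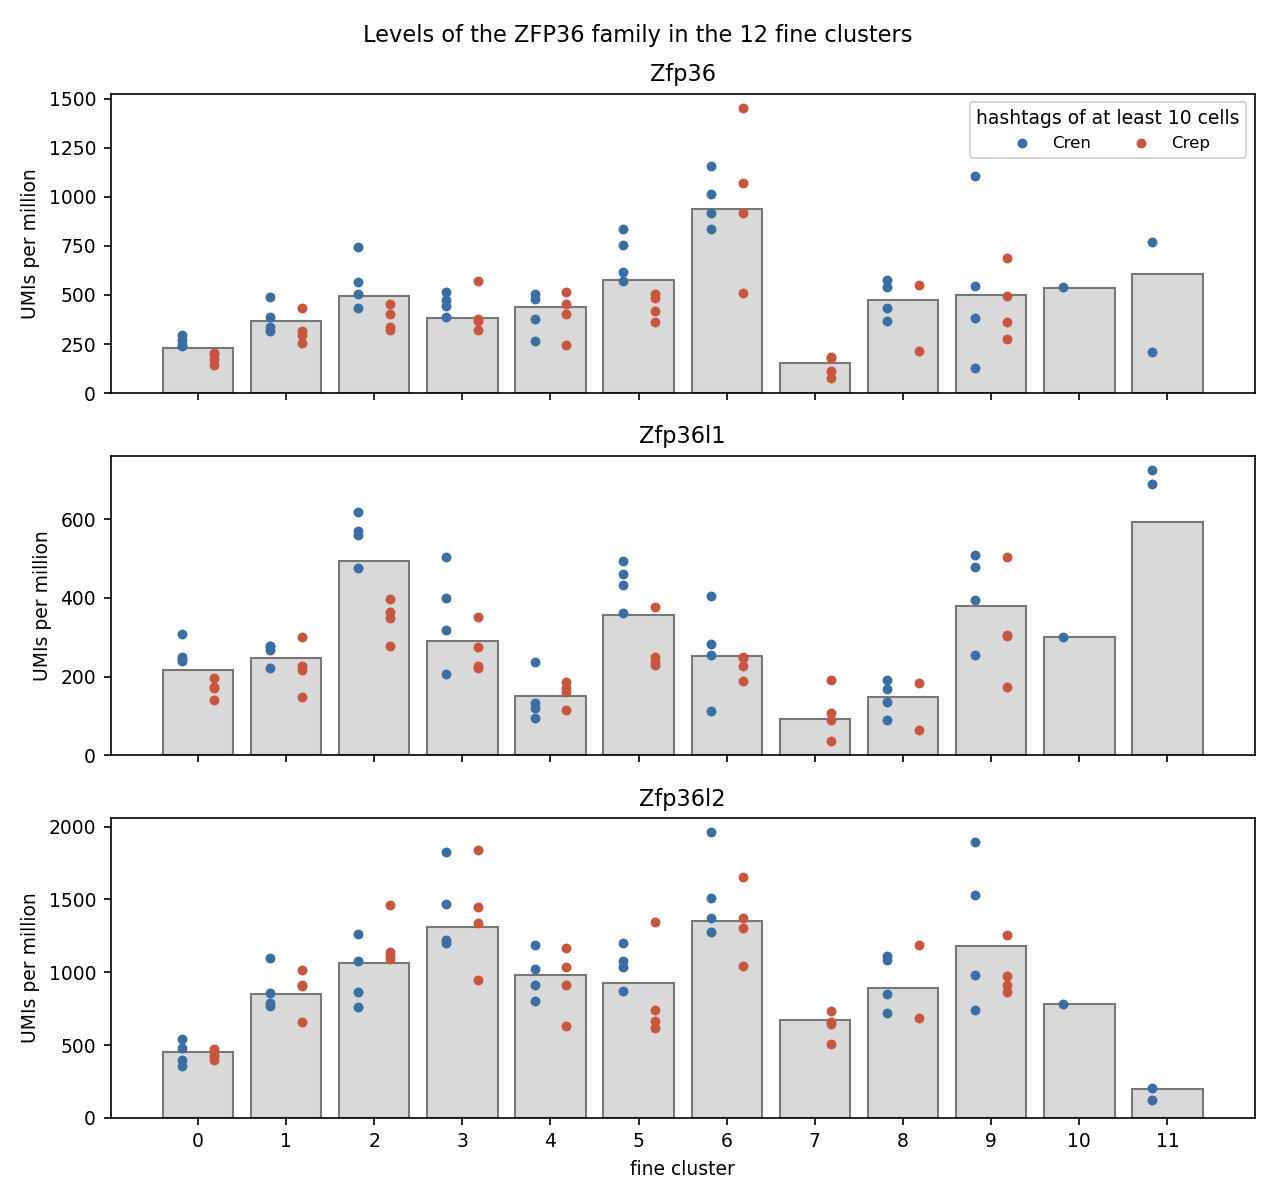
Bars give the pooled level (CPM, linear axis) of each gene in the 12 fine clusters, and points the level in each hashtag with at least 10 cells there, blue for Cren and red for Crep. Zfp36 peaks in cluster 6, Zfp36l1 in clusters 11 and 2, and Zfp36l2 in clusters 6 and 3. Cluster 7, with 570 of 592 cells from Crep, is the lowest for Zfp36 and Zfp36l1.

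Over all cells, Zfp36 and Zfp36l1 had lower values in Crep than in Cren, and the interval of Zfp36l2 spanned 0. None of these differences passed the edgeR threshold over all genes, where 59 of 9653 genes (0.611%) did. Zfp36 stood at 557, 430, 537 and 494 normalized CPM in Cren 1 to 4 and at 410, 296, 462 and 334 in Crep 1 to 4. Crep 3 lay above Cren 2, so the groups overlapped. The log2 difference was -0.43 (SE 0.13, 95% interval -0.72 to -0.13, edgeR adjusted p = 0.245). In sums over all cells, fewer cells of a type and less RNA per cell cannot be told apart.

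Zfp36l1 stood at 305, 386, 301 and 345 CPM in Cren 1 to 4 and at 232, 211, 243 and 140 in Crep 1 to 4. Every Crep hashtag lay below every Cren hashtag, as held for 315 of the 9653 genes tested (3.26%), and Crep 4 was the lowest. The log2 difference was -0.69 (SE 0.16, 95% interval -1.07 to -0.32, edgeR adjusted p = 0.131). It passed with DESeq2 (-0.69, adjusted p = 0.00186), but not with limma-voom (-0.71, adjusted p = 0.0683). With Crep 4 left out it was -0.55 and passed (edgeR adjusted p = 0.0177). The antisense gene Gm26669 overlaps Zfp36l1 and had 1359 UMIs and a log2 difference of -0.77 (SE 0.18, edgeR adjusted p = 0.0952). The strand setting of the counting is not given in the sources used here, so reads of the pair cannot be told apart.

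Zfp36l2 stood at 932, 1121, 864 and 838 CPM in Cren 1 to 4 and at 1041, 769, 948 and 935 in Crep 1 to 4. The groups overlapped throughout, and Cren 2 was the highest and Crep 2 the lowest. Its log2 difference was -0.02 (95% interval -0.25 to 0.20, edgeR adjusted p = 0.966). Among the 3 genes, the unadjusted edgeR p was under 0.05 for 2, DESeq2 called 1 and limma-voom called 0. Over all 9653 genes these shares were 11.1%, 1.48% and 0.207%. The family was chosen on this contrast, so nothing is read from these counts. Zfp36l2 made up 52.6% ± 3.6 (SD, n = 4) of the family's UMIs in Cren and 61.5% ± 3.8 (SD, n = 4) in Crep. The 3 genes together came to 1657 to 1957 CPM in Cren and 1248 to 1711 in Crep, which overlap.

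**Figure D2:**
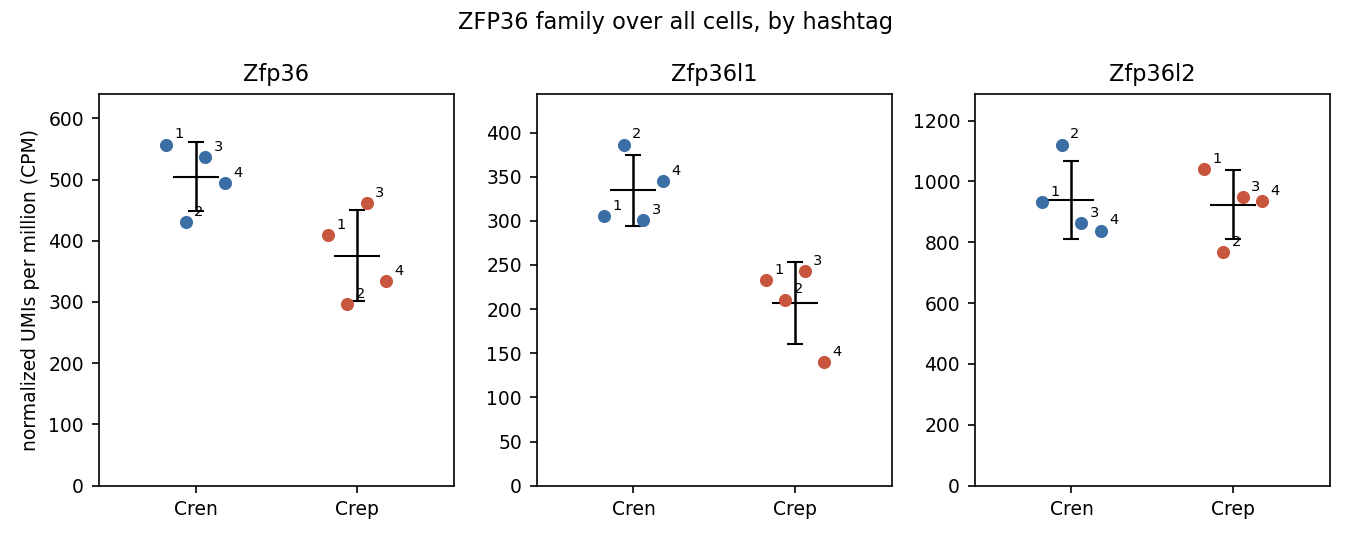
Each point is 1 hashtag, numbered by replicate, with its normalized CPM over all cells on a linear axis from 0; black bars are the mean ± SD of the 4 hashtags of a group. The Crep hashtags lie below all Cren hashtags for Zfp36l1 (140 to 243 against 301 to 386), overlap them in 1 hashtag of each group for Zfp36, and overlap throughout for Zfp36l2.

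The hashtags differed in their cluster make-up, which alone moves such sums. A level was therefore computed for each hashtag from its share of UMIs in each fine cluster and the level of that cluster over all hashtags. This computed level gave a log2 difference of -0.17 for Zfp36 against -0.43 observed in the same plain CPM, and of -0.29 against -0.70 for Zfp36l1. For Zfp36l2 it was 0.04 against -0.03. Clusters 7 (570 of 592 cells from Crep), 8 (448 of 501 from Cren) and 10 (110 of 112 from Cren) held mostly 1 group. Their level over all hashtags is largely that group's, so make-up and differences within these clusters cannot be told apart. The levels from make-up overlapped between groups for each gene. For Zfp36l1 they ran from 267 to 323 CPM in Cren and from 169 to 275 in Crep, the lowest in Crep 4. With equal weight for each of the 6 tested clusters, the log2 difference of Zfp36l1 was -0.49 and passed (limma adjusted p = 0.0156), and that of Zfp36 was -0.31 (limma adjusted p = 0.488). No minimum of cells applied to this weighting, so the 19 cells of Crep 4 in cluster 5 had the full weight of a cluster.

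**Figure D3:**
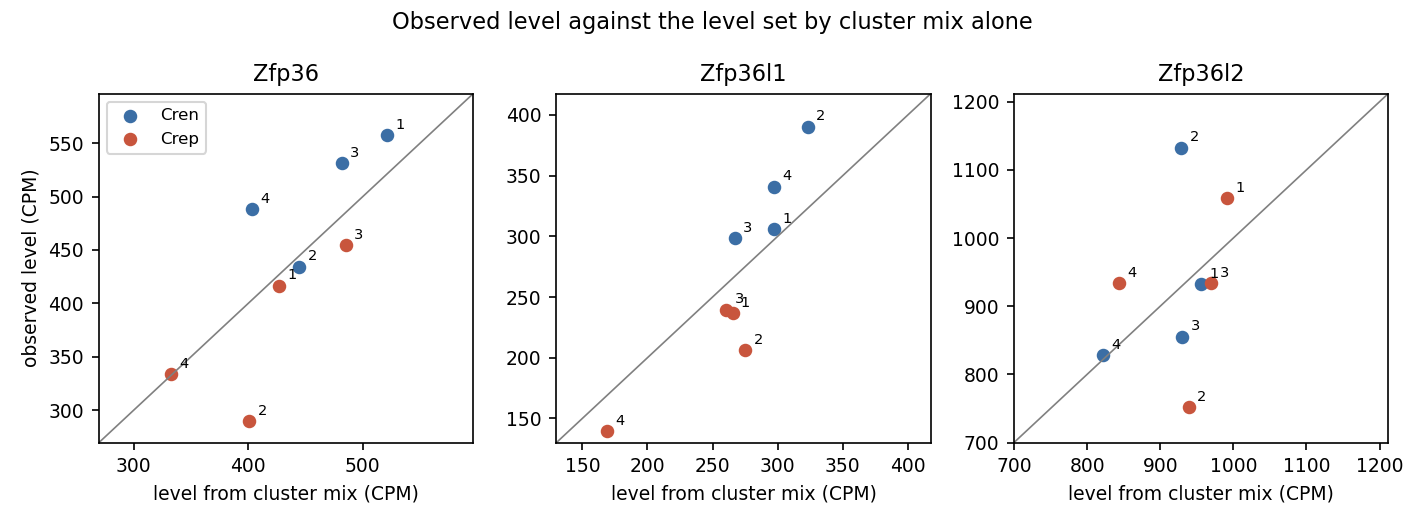
Each point is 1 hashtag, with the level computed from its cluster make-up on the horizontal axis and the observed level on the vertical axis. Both are in CPM on axes that do not start at 0, and the grey line marks equality. For Zfp36l1 the 4 Cren hashtags lie above the line and the 4 Crep hashtags below it.

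Within clusters the difference could be tested in 6 of 12, where 3 or more Cren and 3 or more Crep hashtags had 20 cells or more. Of the 18 tests, 6 passed, all with lower values in Crep, and they fell in 3 clusters: 5, 0 and 2. Of all genes, 0% (cluster 3) to 1.19% (cluster 5) passed per tested cluster. The family was chosen on this contrast, so nothing is read from the count of 6. Zfp36 and Zfp36l1 were negative in all 6 tested clusters, from -0.75 to -0.06 for Zfp36 and from -0.86 to -0.22 for Zfp36l1, while Zfp36l2 ran from -0.67 to 0.24. The sign of Zfp36 in cluster 6 turned without Crep 2 (0.16) or without Cren 3 (0.05). These clusters share the hashtags and are not separate replicates. How many of all genes were separate between groups within a cluster was not counted, so nothing is read from separation there.

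Cluster 5 had the lowest log2 differences of all 3 genes. It was stem-like by Tcf7, Slamf6 and Id3, with Tnfrsf25 and Ifitm1 leading, and made up 6.79 to 16.4% of cells in Cren hashtags and 1.82 to 12.1% in Crep ones. All 3 members passed there, where 1.19% of 4044 genes did; since the family was chosen on this contrast, nothing is read from that count. Crep 4 had 19 cells in it and did not enter this fit.

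In cluster 5, Zfp36 stood at 620, 926, 666 and 838 normalized CPM in Cren 1 to 4 and at 536, 393 and 452 in Crep 1 to 3, with no overlap (log2 -0.75, SE 0.14, edgeR adjusted p = 0.00113). Zfp36l1 stood at 392, 548, 497 and 480 in Cren and at 253, 250 and 270 in Crep, again apart (log2 -0.86, SE 0.15, edgeR adjusted p = 0.000225). Zfp36l2 stood at 1124, 1335, 941 and 1192 in Cren and at 788, 727 and 670 in Crep, also apart (log2 -0.67, SE 0.12, edgeR adjusted p = 0.000356). The hashtag left out changed this picture for Zfp36l2. In the 19 cells of Crep 4 it had 75 UMIs, or 1343 plain CPM, above every other hashtag on that scale, whereas Zfp36 had 27 UMIs (483 CPM) and Zfp36l1 had 21 (376 CPM). With Crep 4 included, Zfp36 (-0.72, edgeR adjusted p = 0.0016) and Zfp36l1 (-0.78, edgeR adjusted p = 0.00142) still passed and Zfp36l2 did not (-0.47, edgeR adjusted p = 0.470). Zfp36 did not pass without Crep 2 (-0.64, edgeR adjusted p = 0.0572).

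Cluster 0, the largest with 1321 cells and the cluster with nearly the lowest Zfp36 and Zfp36l2 levels, had lower Zfp36 and Zfp36l1 in Crep. Of its 5409 genes tested, 0.980% passed. Zfp36 stood at 253, 308, 252 and 289 CPM in Cren 1 to 4 and at 212, 181, 214 and 155 in Crep 1 to 4, without overlap (log2 -0.51, SE 0.13, edgeR adjusted p = 0.0384). With 1 hashtag left out at a time, the log2 difference ran from -0.56 to -0.45, and the call was kept in 1 of 8 fits, with edgeR adjusted p from 0.0288 (without Cren 3) to 0.243 (without Crep 2). Zfp36l1 stood at 258, 255, 252 and 327 in Cren and at 177, 149, 209 and 185 in Crep, without overlap (log2 -0.63, SE 0.13, edgeR adjusted p = 0.00943), and was not called without Crep 2 (-0.52, edgeR adjusted p = 0.159). Zfp36l2 overlapped (log2 -0.04, 95% interval -0.28 to 0.20).

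In cluster 2, where 0.280% of 4995 genes passed, Zfp36l1 was the member that passed. It stood at 591, 599, 648 and 525 CPM in Cren 1 to 4 and at 412, 376, 392 and 294 in Crep 1 to 4, with a gap between the groups (log2 -0.63, SE 0.12, edgeR adjusted p = 0.0121; 0.0771 without Crep 2). Zfp36 stood at 784, 453, 527 and 626 in Cren and at 472, 349, 432 and 356 in Crep, where Cren 2 lay below Crep 1 (log2 -0.55, SE 0.16, edgeR adjusted p = 0.223). It passed without Cren 2 (-0.67, edgeR adjusted p = 0.0262) and with no filter on low counts (-0.58, edgeR adjusted p = 0.0103), and was smaller without Cren 1 (-0.37, edgeR adjusted p = 0.708) and without Crep 2 (-0.45, edgeR adjusted p = 0.706). Zfp36l2 had the opposite sign here, at 804 to 1326 in Cren and 1159 to 1546 in Crep, which overlap (log2 0.24, 95% interval -0.03 to 0.52, edgeR adjusted p = 0.882). The highest value was that of Crep 4, with 25 cells. With at least 50 cells per hashtag the log2 difference was 0.17.

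No member passed in clusters 1, 3 and 6, where 0.173% of 4623 genes, 0% of 4548 genes (261 at an unadjusted edgeR p under 0.05) and 0.0269% of 3712 genes passed. Cluster 6, with the highest Zfp36 level, had Zfp36 at 933 to 1262 CPM in Cren and 567 to 1585 in Crep. The Crep hashtags there spanned the whole Cren range (log2 -0.06, 95% interval -0.76 to 0.64). Zfp36l1 was at -0.30 in cluster 6, -0.34 in cluster 3 and -0.22 in cluster 1 on the log2 scale, with all 3 intervals including 0.

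**Figure D4:**
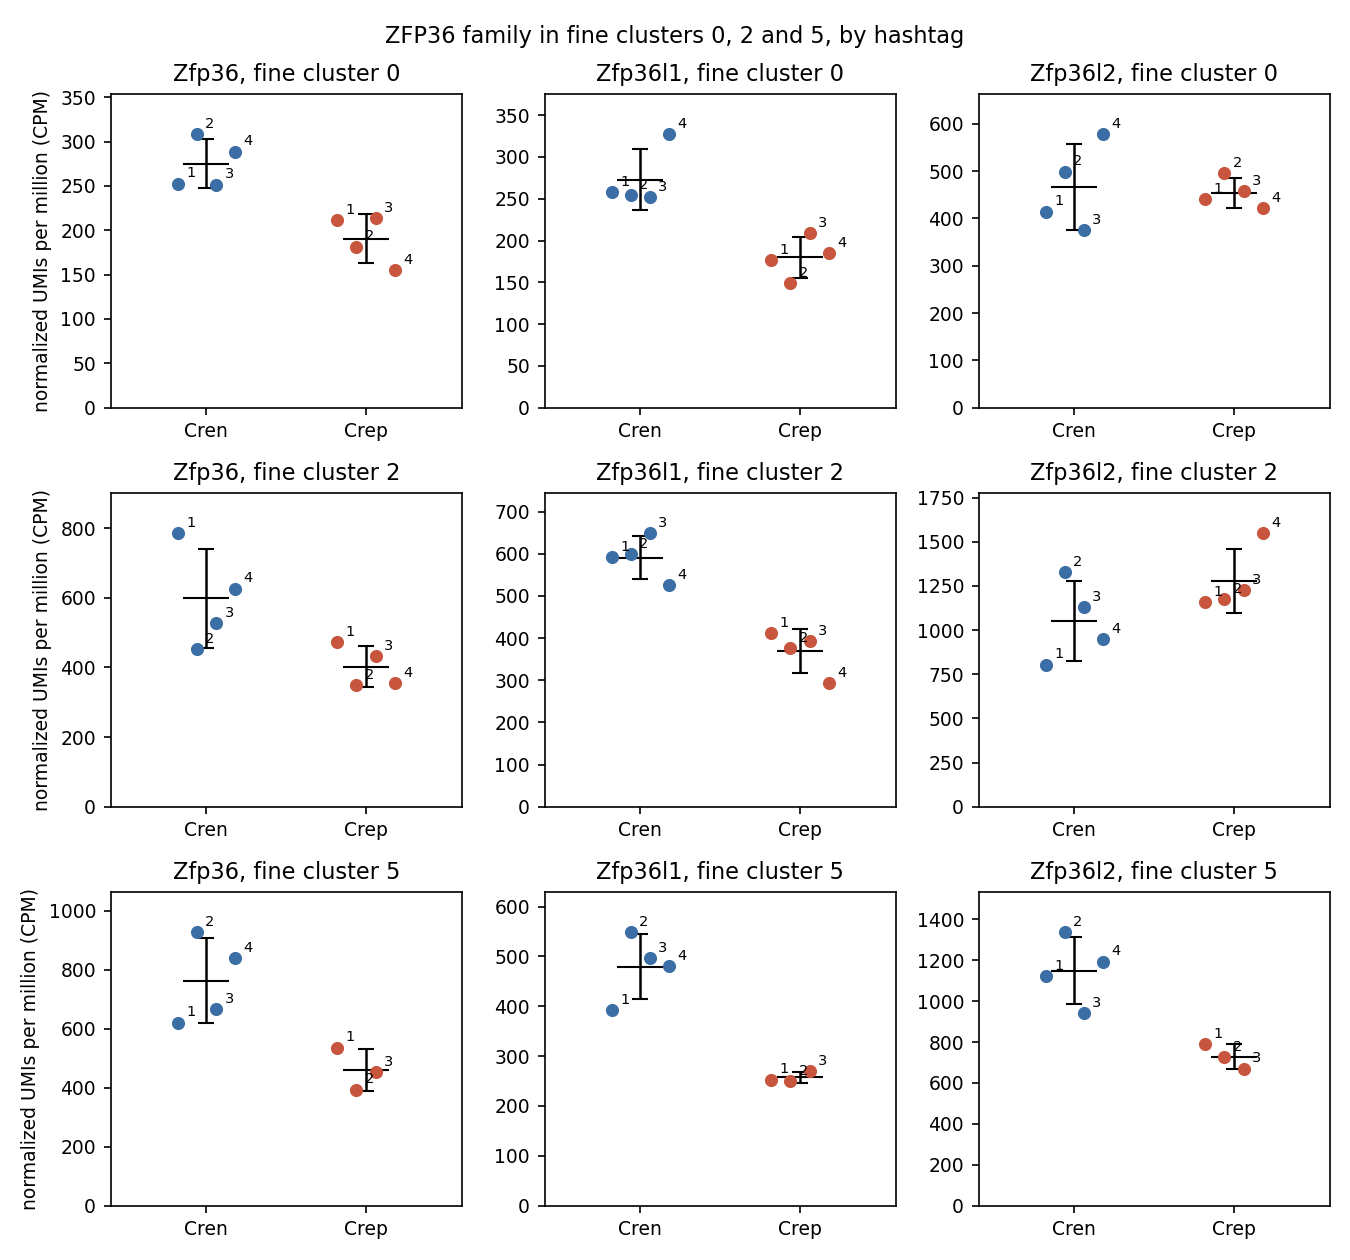
Normalized CPM (linear axis from 0) of each gene in fine clusters 0, 2 and 5; points are hashtags numbered by replicate, and black bars the mean ± SD of 4 hashtags, or of 3 for Crep in cluster 5, which lacks Crep 4. Zfp36l1 is separate between groups in each of these clusters, Zfp36 in clusters 0 and 5, and Zfp36l2 in cluster 5. The share of all genes separate in this way was not counted within clusters.

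A call in 1 cluster and none in another is no difference between them, so the difference itself was tested in 1 model over the 47 sums of hashtag and cluster, with the hashtag as a block. The Crep minus Cren effect was not shown to differ between clusters for any member with low counts filtered. The F test over all clusters gave edgeR adjusted p = 0.997 for Zfp36, 0.955 for Zfp36l1 and 0.545 for Zfp36l2, where 5 of 6656 genes (0.0751%) passed. The unadjusted edgeR p was 0.00795 for Zfp36l2, 0.132 for Zfp36l1 and 0.396 for Zfp36.

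Setting each cluster against the mean of the others gave 18 contrasts of the members, of which 0 passed with edgeR, 3 had an unadjusted p under 0.05, and 0 passed with limma-voom. Of all genes, 0.0300% passed in the contrast of cluster 0 and 0% in each of those of clusters 1, 2, 3, 5 and 6. Per contrast, 294 (cluster 2) to 440 (cluster 0) of all 6656 genes had an unadjusted edgeR p under 0.05. Zfp36l2 in cluster 5 had the smallest p, at a log2 difference from the other clusters of -0.60 (SE 0.17, 95% interval -0.94 to -0.26, edgeR adjusted p = 0.360). With Crep 4 included in cluster 5 it was -0.50 (edgeR adjusted p = 0.545), and with no filter on low counts it was -0.63 and passed (edgeR adjusted p = 0.000342). Zfp36l2 in cluster 2 was 0.43 above the others (SE 0.14, edgeR adjusted p = 0.858). With at least 50 cells per hashtag, which drops Crep 4 (25 cells) there and tests clusters 0 to 3 only, it was 0.26 (95% interval -0.12 to 0.64). Zfp36l1 in cluster 5 was -0.45 (SE 0.21, edgeR adjusted p = 0.815). The intervals of the remaining contrasts included 0, and their width, -0.58 to 0.39 for Zfp36 in cluster 0 for example, shows the differences that these 8 hashtags leave possible. The F test of Zfp36l2 also passed with no filter on low counts (edgeR adjusted p = 0.000306).

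**Figure D5:**
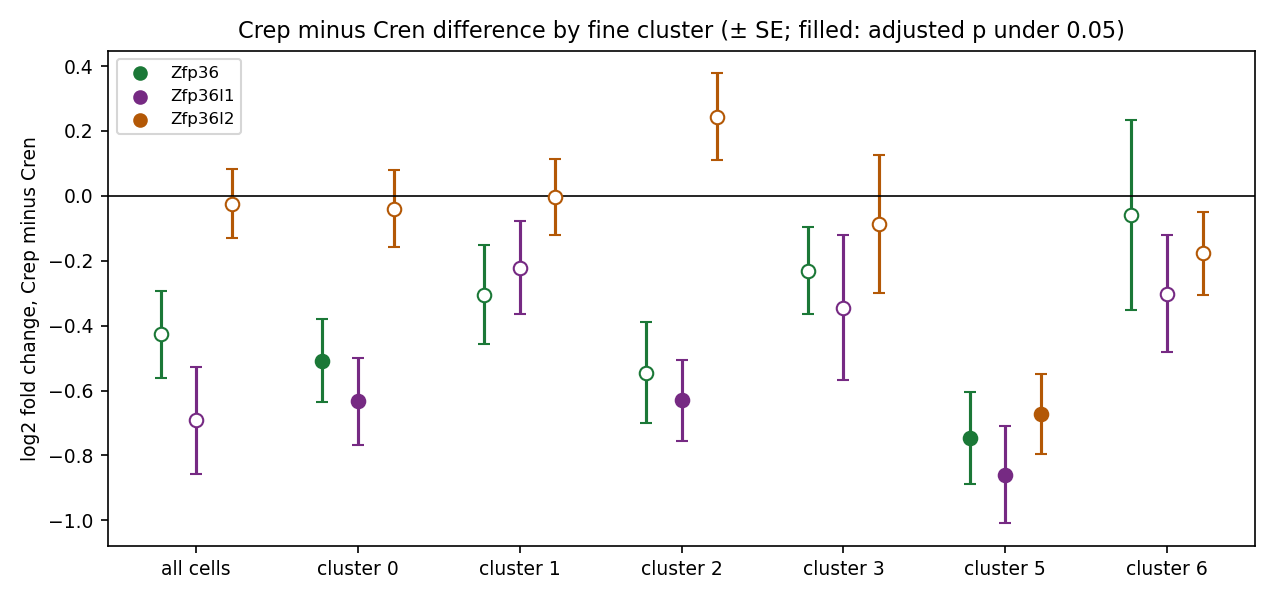
Log2 fold change (Crep minus Cren, edgeR) of each gene over all cells and in the 6 tested fine clusters, with bars of ± 1 SE; filled points passed at an adjusted p under 0.05 over all genes of that fit. Zfp36 and Zfp36l1 lie below 0 in every tested cluster, though for Zfp36 in cluster 6 this turns without Crep 2 (0.16) or Cren 3 (0.05), and Zfp36l2 spreads from -0.67 in cluster 5 (without Crep 4) to 0.24 in cluster 2.

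The share of cells with a UMI gives the same contrast per cell, and cluster make-up enters it as it does the sums. How many of all genes were separate between groups on this measure was not counted, so nothing is read from separation in it. At 2000 UMIs per cell, which left 3468 Cren and 3171 Crep cells and dropped 937 and 986, a Zfp36l1 UMI was found in 36.2, 44.0, 40.5 and 40.9% of cells of Cren 1 to 4 and in 31.9, 28.2, 35.2 and 22.4% of Crep 1 to 4, with no overlap. For Zfp36 the shares were 44.4% ± 2.9 (SD, n = 4) in Cren and 37.7% ± 4.8 (SD, n = 4) in Crep, and Crep 3 (43.8%) lay above Cren 2 (41.8%). For Zfp36l2 they were 70.0% ± 3.5 and 69.2% ± 3.4 (SD, n = 4 each). Without thinning, Zfp36l1 was at 49.2% in Cren and 37.0% in Crep, at median depths of 2663 to 3000 and 2334 to 2997 UMIs per cell. These cells include no type that should lack the genes, so no background share was available.

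Each member's level across the 11 fine clusters of at least 100 cells was set beside those of 5589 genes of at least 20 CPM, by Pearson correlation of log2 (CPM + 1). The clusters share one library and were built on these genes, so the values describe and do not test. The genes most like Zfp36 were Nr4a1 (r = 0.94), Ifrd1 (0.93), Ier5 (0.92), Ier2 (0.92) and Gpr146 (0.91), and those least like it Rex1bd (-0.91) and Gpaa1 (-0.91). Ier2, Ier5, Ifrd1 and Nr4a1 are known as early response genes. Most like Zfp36l1 were Gm26669 (0.97), the overlapping antisense gene, Irf2bp2 (0.95), Fam241a (0.91), Cd69 (0.90), a retention receptor of activated and resident T cells, and Furin (0.89), a protease. Gzmk (-0.90), a granzyme, and Ifitm10 (-0.86) were least like it. Zfp36l2 was most like Dnajb12 (0.90), Dusp5 (0.89), an ERK phosphatase, E430024P14Rik (0.88), Tagap (0.88) and Gpkow (0.88), and least like Tipin (-0.87) and Tmem208 (-0.79). Among the members, r was 0.71 for Zfp36 with Zfp36l2, 0.58 for Zfp36 with Zfp36l1 and 0.41 for Zfp36l1 with Zfp36l2. With the summed early response genes of these clusters, r was 0.88 for Zfp36, 0.77 for Zfp36l2 and 0.73 for Zfp36l1.

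The machinery around the family was read from 6 lists of genes known for these roles. None of the lists held a gene past the edgeR threshold over all cells; the counts at an unadjusted p under 0.05 and by DESeq2 follow, and limma-voom called 0 in each. Over all 9653 genes, 11.1% had an unadjusted edgeR p under 0.05, DESeq2 called 1.48% and limma-voom 0.207%. Of 18 other regulators of message stability, 11 were negative (median log2 -0.03), 2 had an unadjusted p under 0.05, and DESeq2 called 1. That was Arid5a, which binds and stabilizes cytokine messages, at 133 to 187 CPM in Cren and 117 to 132 in Crep (log2 -0.44, SE 0.10, edgeR adjusted p = 0.0648). Arid5a lay lower in every Crep hashtag than in every Cren hashtag, as held for 3.26% of all genes. Zc3h12d, an endoribonuclease, was at -0.51 (SE 0.23) and Pcbp1, a poly(C)-binding protein, at -0.13 (SE 0.08).

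Over all cells no gene of the effector complexes passed with edgeR, DESeq2 or limma-voom. Of 18 tested genes of CCR4-NOT and its adaptors, 12 were negative (median -0.09), 3 had an unadjusted edgeR p under 0.05 and DESeq2 called 0. The smallest p were those of the antiproliferative adaptors Tob2 (log2 -0.58, SE 0.14, edgeR adjusted p = 0.0759), Tob1 (-0.41, SE 0.16) and Btg1 (-0.18, SE 0.08). In cluster 5 with Crep 4 included, 10 of 12 of these genes were negative (median -0.27). Btg1, named after its value was seen, passed there (-0.40, edgeR adjusted p = 0.0456), and without Crep 4 none did. Over all 3478 genes of the fit with Crep 4, the median was -0.01 and 1.50% passed. Of 16 genes of decapping and 5′ to 3′ decay, 10 were negative (median -0.02), with 0 at an unadjusted edgeR p under 0.05 and 0 called by DESeq2. Xrn1, the 5′ to 3′ exonuclease, was at 0.14 (SE 0.09), Lsm1 at -0.13 (SE 0.10) and Lsm4 at 0.08 (SE 0.08). Of 16 kinases and phosphatases that act on ZFP36 proteins, 5 were negative (median 0.08), 4 had an unadjusted edgeR p under 0.05 and DESeq2 called 0. Mapkapk3, a p38-activated kinase, was at 0.29 (SE 0.10), Dusp10, a p38 and JNK phosphatase, at -0.38 (SE 0.14) and Akt2 at 0.27 (SE 0.11). Over all 9653 genes the median was 0.00 and 50.1% were negative.

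Messages that ZFP36 proteins are reported to bind in lymphocytes were the list with the largest shift in median over all cells. Of 29 tested, 24 were negative (median log2 -0.29), 8 had an unadjusted edgeR p under 0.05, 6 of them lower, and DESeq2 called 2. Those were Ccnd2, a cyclin, at 63.0 to 103 CPM in Cren and 109 to 134 in Crep (log2 0.57, SE 0.13, edgeR adjusted p = 0.0632), and Tnfsf8, the ligand of CD30 (DESeq2 log2 -1.36, adjusted p = 0.0330). The NF-kB subunit Rel was at 103 to 128 in Cren and 63.1 to 94.1 in Crep (log2 -0.44, SE 0.12, edgeR adjusted p = 0.102). Cd69 was at 205 to 225 in Cren and 150 to 198 in Crep (log2 -0.28, SE 0.09, edgeR adjusted p = 0.182). Rel and Cd69 were lower in every Crep hashtag than in every Cren hashtag, as held for 3.26% of all genes. Of these genes 30 had an annotated 3′ untranslated region, of which 10 held the nonamer and 20 the heptamer; Tnf held 5 nonamers.

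The list was also counted within each tested cluster. Of all 4044 genes tested in cluster 5, 51.4% were negative, 1.19% passed and 0.668% passed with lower values in Crep. Of the list, 17 of 19 were negative there (median log2 -0.61). The 4 that passed were lower in Crep, and all were named after their values were seen. They were the costimulatory receptor Icos (-1.09, edgeR adjusted p = 0.00211), the NF-kB inhibitors Nfkbia (-0.92, edgeR adjusted p = 0.0319) and Tnfaip3 (-0.75, edgeR adjusted p = 0.000213), and Nr4a1 (-1.08, edgeR adjusted p = 0.00697). With Crep 4 included, Icos (edgeR adjusted p = 0.0302) and Tnfaip3 (edgeR adjusted p = 0.000251) passed, and Nfkbia (0.0540) and Nr4a1 (0.430) did not. In cluster 0, 9 of 22 were negative (median 0.08), and the 2 that passed, the chemokine Ccl3 (log2 0.89, edgeR adjusted p = 0.0279) and Ccnd2 (0.81, edgeR adjusted p = 0.0116), were higher in Crep. In the other tested clusters none passed, and 13 of 21 (cluster 1, median -0.14), 16 of 23 (cluster 2, -0.17), 17 of 23 (cluster 3, -0.05) and 11 of 20 (cluster 6, -0.03) were negative. Ccnd2 had a positive and Nr4a1 a negative log2 difference in each of the 6 clusters, at 0.63 for Ccnd2 in cluster 5 and -0.85 for Nr4a1 in cluster 0, where neither passed. Of all genes, 50.7 to 52.7% were negative in the tested clusters, and 0.980% passed in cluster 0. A difference between clusters was not tested for the list.

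Of other early response genes, 12 of 16 were negative over all cells (median log2 -0.18), with 0 at an unadjusted edgeR p under 0.05 and 0 called by DESeq2. Egr1 (-0.55, SE 0.24), Fos (-0.33, SE 0.15) and Btg2 (-0.16, SE 0.09) had the smallest p, and Crep 4 was the lowest hashtag for each. In cluster 5, 13 of 14 were negative (median -0.25) and 3 passed with lower values, Junb (-0.52, edgeR adjusted p = 0.0203), Dusp1 (-0.63, edgeR adjusted p = 0.00737) and Nr4a1. Of all 4044 genes there, 51.4% were negative and 1.19% passed. Junb and Dusp1 also passed with Crep 4 included. In cluster 0, where Zfp36 passed, 6 of 14 early response genes were negative (median 0.04), against 50.7% of all genes there. The median mitochondrial share of UMIs was 0.67 to 0.81% in Cren hashtags and 0.62 to 0.65% in Crep hashtags, and its part in these results was not tested.

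Genes with the nonamer in the 3′ untranslated region had a median near that of all genes over all cells. Of them 756 were tested, with 419 negative (median log2 -0.02) and 5 called by edgeR, or 0.661%. Genes with the heptamer had a median of -0.01 and those with neither one of 0.01. In cluster 5, 155 of 271 nonamer genes were negative (median -0.05) and 9 were called, 8 of them lower in Crep, where 1.19% of all genes were called and 0.668% lower. The 8 include the chosen members; without these, 6 of 268 were called, 5 of them lower, among them Tnfaip3, Nfkbia and Dusp1. With Crep 4 included, 6 of 230 were called without the members, Nfkbia and Zfp36l2 no longer among those called, where 1.50% of 3478 genes were called.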

How the data were processed

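Droplet single-cell RNA sequencing (10x 5′ v2 with feature barcoding) was made on 1 pooled library. The authors deposited raw UMI counts per gene and cell. The mitochondrial, ribosomal and heat shock shares are percent of a cell's UMIs, as deposited by the authors. The submitters' processing notes name the build mm10 and the tools Seurat 4.3.0, Cell Ranger 7.0.0 and bcl2fastq 2.20.0.422, without roles. Cells had been filtered before deposit; none was removed here and no doublet caller was run. Both deposited hashtag classifiers gave the annotated hashtag for 8447 of 8562 cells.

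Counts were summed per hashtag, over all cells or per fine cluster (at least 20 cells), and fitted with edgeR 4.0.16 (R 4.3.3; TMM, filterByExpr, robust quasi-likelihood test, Benjamini-Hochberg at 0.05 over all genes tested). DESeq2 1.42.0 and limma 3.58.1 were alternatives. Quoted CPM are normalized by edgeR within a fit; levels per cluster use plain totals. A marker counted as raised at 1.5 times the other cells and in 5% of cells. The named genes were the members, the 5 most and 2 least like each, and of each list those that passed or the 3 of smallest p. The fits were checked on simulated counts. Hashtags served as replicates. Whether each marks a separate mouse is not stated in the sources used here, so p-values measure the spread between hashtags, which may be technical. The members and lists were chosen with earlier results of these data known. Figures used matplotlib 3.10.9.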

Additional observations from a re-analysis of the deposited data

Results flagged for a closer look

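Hashtag values were checked in 51 sets of a gene and a group. The values were CPM over all cells, in a cluster or with equal cluster weights, or the share of cells with a UMI. By Dixon's ratio, 2 sets held a hashtag far from the others of its group. Chance flags about 1 in 20 independent sets, and these sets reuse the same hashtags. Zfp36l1 in fine cluster 0 was 327 normalized CPM in Cren 4, above the other Cren hashtags. Zfp36l2 in fine cluster 2 was 1546 normalized CPM in Crep 4, above the other Crep hashtags.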

How the results depend on the processing

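Over all cells, leaving out 1 hashtag at a time gave log2 differences from -0.54 to -0.33 for Zfp36, from -0.78 to -0.55 for Zfp36l1 and from -0.09 to 0.07 for Zfp36l2. The count of genes called over all cells, 59 in edgeR, was 143 with DESeq2, 20 with limma-voom, 24 with equal cluster weights and 14 to 121 with 1 hashtag left out. Zfp36l1 passed with DESeq2 (-0.69), with equal cluster weights (-0.49) and without Crep 4 (-0.55). Of the family's tests within clusters, 6 passed; 3 passed with at least 50 cells per hashtag, which tests clusters 0 to 3 only, 3 with the coarse clusters, and 2 to 6 with 1 hashtag left out, the fewest without Crep 2. In the main fits, 0 to 1.19% of all genes passed per tested cluster. The family was chosen on this contrast, so nothing is read from its counts. The fit with all 8 hashtags in cluster 5 was chosen after seeing the data. The F statistic of the difference between clusters ran from 0.69 to 1.42 for Zfp36, from 1.22 to 3.55 for Zfp36l1 and from 2.05 to 5.08 for Zfp36l2 with 1 hashtag left out; for Zfp36l2 it was 8.39 with no filter on low counts, where it passed, and the cause was not tested.

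Hashtag numbers were not shown to pair the samples: correlations of deviations between same-numbered hashtags were -0.04, 0.14, 0.18 and 0.12. With the number as a replicate block, added after seeing the data, 103 genes were called, and Zfp36 was -0.44 (edgeR adjusted p = 0.0211). Cluster 5 in Crep 4, with 19 cells, limits what can be said of Zfp36l2 there.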
